A study of Mus musculus with 6 samples.

Results

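The most abundant 3′ end clusters of mouse embryonic stem cells are described here from 3′ end sequencing of poly(A)+ RNA. A cluster is a group of same-strand cleavage positions with gaps of at most 24 nt, pooled over 6 libraries and outside chromosome M. Levels are in CPM, the reads of a cluster scaled to the total reads of its library outside chromosome M. Clusters were selected on measured values, namely a mean level over the 6 libraries of 200 CPM or more, which left 879 of 931675 clusters (0.0943%). All 879 had reads in all 6 libraries, and 441 lay on the plus strand and 438 on the minus strand.

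The cells were V6.5, a mouse embryonic stem cell line of the strain C57BL/6-129, kept under standard culture conditions. Antisense morpholino oligonucleotides (AMO) were used in 2 of the 3 groups, one with a scrambled AMO and one with an AMO that targets U1, and the third group had no treatment (untreated). Each group had 2 biological replicates. The labels refer to published conditions for U1 inhibition, and no dose or time was used here. An annotation of the genome build of the positions (mm9) was not used here, so clusters are named by their coordinates, and the cell type was not checked against marker genes. In bulk RNA, fewer cells of a type and less RNA per cell cannot be told apart. The libraries held between 15413148 and 61726804 reads outside chromosome M, and chromosome M took between 0.352% and 2.15% of reads. By their read names, both AMO libraries of replicate 1 were sequenced in one run and lane, and both of replicate 2 in a second run on different lanes. The untreated libraries had other runs, one each, so untreated cells cannot be told apart from their runs. In the AMO groups each replicate number is one run, so the run and the biological replicate cannot be told apart.

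The 3′ end of most messenger RNAs is made by endonucleolytic cleavage of the nascent transcript followed by addition of a poly(A) tail. The cleavage and polyadenylation specificity factor binds a hexamer, most often AATAAA, and cuts a short distance downstream, commonly at several adjacent nucleotides. U1 is the small nuclear ribonucleoprotein that pairs with 5′ splice sites, and it is also known to suppress cleavage at poly(A) signals inside transcribed regions. An antisense morpholino that covers the U1 RNA blocks both activities, and a scrambled sequence serves as its control.

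The deposited lists pair each position with a hexamer and with the distance from hexamer to position (6 to 40 nt). The hexamers at the strongest position of each cluster are printed first because they are the sequence that the clusters share. Capitals mark the base that differs from AATAAA, and the sequences read 5′ to 3′ on the strand of the RNA, written with T.
654 clusters: aataaa
151 clusters: aTtaaa
24 clusters: aGtaaa
12 clusters: aataTa
10 clusters: Tataaa
6 clusters: aataCa
5 clusters: Gataaa
4 clusters: Cataaa
These 8 are the kinds with at least 4 clusters, and all but the first differ from AATAAA at a single base.

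AATAAA or ATTAAA stood at the strongest position of 805 of the 879 clusters (91.6%). The same held for 86.3% of the 6308 clusters with a mean of 20 to 200 CPM and for 75.04% of the 14331 clusters with 2 to 20 CPM. AATAAA alone accounted for 74.4%, 68.8% and 57.2% of the clusters from the highest to the lowest of these levels, whereas ATTAAA stayed at 17.2%, 17.5% and 17.9%. The difference between the levels thus lay in AATAAA. The other 74 clusters (8.42%) used the remaining kinds, and 18 of the 36 listed kinds occurred in all. The A-only hexamer AAAAAA led none of the 879 clusters, and it was rare among clusters of 20 to 200 CPM too (0.206%). It led 1.60% of those of 2 to 20 CPM. Positions without a listed hexamer were not analysed here, so these shares refer to the deposited positions.

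By reads, AATAAA and ATTAAA together took 92.5% ± 0.167 of the reads of the 879 clusters in untreated cells (SD, n = 2). The share was 92.7% ± 0.997 in scrambled AMO cells and 93.1% ± 0.865 in U1 AMO cells. The group means lay within 1 SD of each other for both AMO groups, and replicate 1 had the higher share in each of them (93.4% and 93.7%, against 92.0% and 92.4% in replicate 2).

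Some clusters with another hexamer were among the strongest of all. The AGTAAA cluster at chr1:88247051-88247084 (minus strand) ranked number 11 of all clusters. It had 4672 and 4189 CPM in untreated cells, 3131 and 7517 in scrambled AMO cells, and 2926 and 7126 in U1 AMO cells. Its levels followed the replicate number, low in replicate 1 and high in replicate 2 of both AMO groups. The others named by rank were a GATAAA cluster at chr11:97022834-97022862 (minus strand, mean 1292 CPM) and an AGTAAA cluster at chr11:51436905-51436948 (plus, 1119 CPM). An AATATA cluster at chr6:67234281-67234315 (plus, 906 CPM) and an ACTAAA cluster at chr5:31505025-31505058 (minus, 875 CPM) followed. In all 5 the named hexamer accounted for at least 99.9% of the reads.

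Neighbouring positions of a cluster can list overlapping hexamers, so a longer stretch of the signal region can be joined from the lists. Letters shared by overlapping hexamers were the same in all 1503 comparisons, and 248 clusters gave a run longer than a hexamer. A few are printed for clusters described below, with the hexamer of the strongest position in capitals.
chr15:102329304-102329374 (plus strand, most dispersed cleavage): aaaaaATTAAA
chr14:55126014-55126052 (minus strand, lower with the U1 AMO in both runs): aaacaAATAAA
chr17:34248951-34248989 (minus strand, higher with the U1 AMO in both runs): AATAAAgaaaata
chr14:31825602-31825671 (minus strand, near absent from one untreated library): AATAAAataca
chr7:104867307-104867459 (plus strand, reads shifted between its signals): aacaAATAAA

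The distance from the hexamer to the strongest position had a median of 21 nt, and 90% of the clusters lay between 17 and 29 nt. A distance of 15 to 30 nt was found at 848 clusters (96.5%), against 92.9% of clusters with 20 to 200 CPM and 86.9% of those with 2 to 20 CPM. Over reads, the mean distance was between 21.5 and 21.9 nt in the 6 libraries, 21.7 ± 0.303 nt in untreated cells, 21.8 ± 0.0854 nt in scrambled AMO cells and 21.8 ± 0.0329 nt in U1 AMO cells (SD, n = 2). The groups differed by less than the spread of the untreated libraries.

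**Figure D1:**
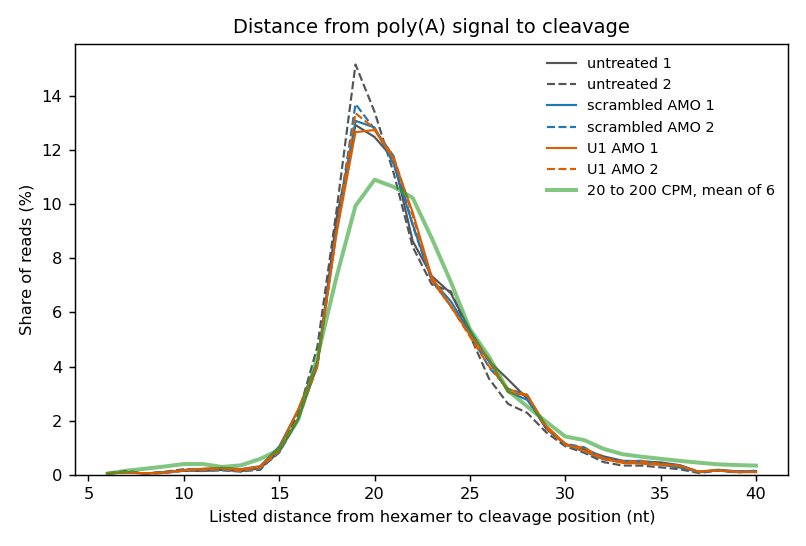
Share of the reads of the 879 clusters (y axis, percent) at each listed distance from hexamer to cleavage position (x axis, nt), one line per library, with the mean of the 6 libraries for clusters of 20 to 200 CPM in green. The libraries peak at 19 nt, or at 20 nt for U1 AMO replicate 1. Untreated replicate 2 has the sharpest peak, and the less abundant clusters have more reads at short and long distances.

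The 879 clusters held 47.6% and 44.8% of reads outside chromosome M in untreated replicates 1 and 2. They held 47.3% and 49.96% in scrambled AMO cells, and 48.1% and 50.4% in U1 AMO cells. The group means were 46.2% ± 1.98, 48.6% ± 1.87 and 49.2% ± 1.63 (SD, n = 2). Counting error was small beside this, since the 95% Wilson intervals were at most 0.0499 percentage points wide. They cover counting error only, as no molecular identifiers are described. Within the runs, the U1 AMO share exceeded the scrambled AMO share by 0.783 percentage points in replicate 1 and by 0.441 in replicate 2, whereas replicates of an AMO group differed by over 2 points. The levels chose the clusters, so these shares are a description.

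The clusters of 20 to 200 CPM held another 35.7% to 41.4% of reads, and those of 2 to 20 CPM 8.71% to 10.3%. Their share with the U1 AMO, 36.0% and 35.7%, was below that with the scrambled AMO in the same run, 38.4% and 37.6%. The reads of a library were thus concentrated on few clusters. The 10 highest took between 4.99% and 8.16%, the 100 highest between 17.5% and 22.0%, and between 832 and 1027 clusters, ranked in the library itself, made up 50% of its reads. Untreated replicate 2 had the lowest value of the first 2 measures and needed the most clusters.

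**Figure D2:**
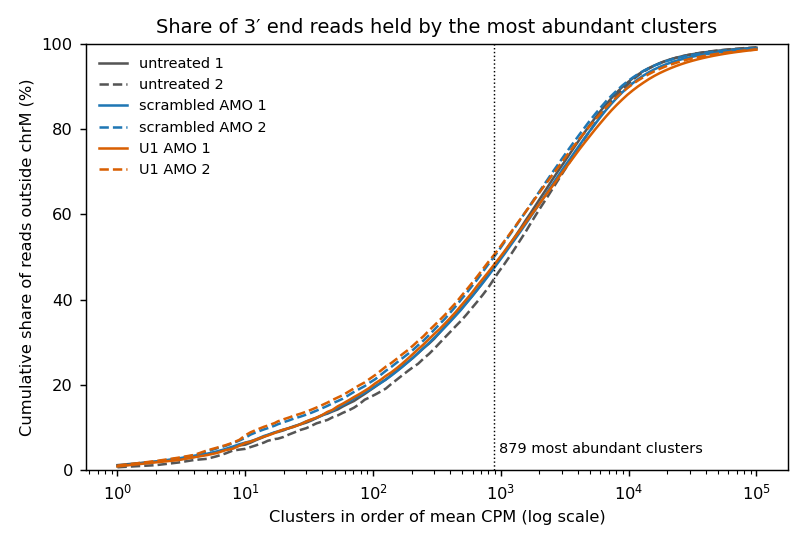
Cumulative share of reads outside chromosome M (y axis, percent) against the number of clusters in order of mean CPM (x axis, log scale), one line per library, with a dotted line at 879 clusters. At that line the libraries lie between 44.8% and 50.4%, with untreated replicate 2 lowest.

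Each library had between 690 and 799 of the 879 clusters at 200 CPM or more. A level of at least 200 CPM was reached in all 6 libraries by 511 clusters (58.1%), in at least 5 by 675 and in 3 or fewer by 90. The mean over the group's own libraries reached 200 CPM at 768 clusters in untreated cells, 829 in scrambled AMO cells and 775 in U1 AMO cells. Of the 879 highest clusters of each library, between 670 (untreated replicate 2) and 794 (scrambled AMO replicate 1) were among the 879. The median cluster had 329 CPM, 234 had at least 500 CPM and 80 at least 1000 CPM. Just inside the threshold were chr4:106873575-106873610 (200.5 CPM), chr17:46787066-46787091 (200.3) and chr8:74677033-74677060 (200.1). Just outside it were chr4:98602208-98602237 (199.8 CPM), chr3:79407186-79407226 (199.5) and chr1:135500443-135500454 (199.5).

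The highest mean belonged to the cluster at chr11:68718003-68718057 (plus strand, ATTAAA). It had 11682 and 6663 CPM in untreated cells, 9336 and 9229 in scrambled AMO cells, and 8689 and 10522 in U1 AMO cells. The AMO libraries lay between the untreated libraries. The second, at chr4:3761600-3761630 (minus strand), had 8410.1 and 4972 CPM untreated, 10689.7 and 10155 in scrambled AMO cells, and 9568 and 10810.2 in U1 AMO cells. Here all 4 AMO libraries were above both untreated libraries and overlapped each other.

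The cluster at chr9:61761070-61761110 (minus strand) was the steadiest of all 879. It had 6194 and 6016 CPM untreated, 6488 and 6935 in scrambled AMO cells, and 6721 and 6639 in U1 AMO cells, a ratio of highest to lowest library of 1.153. The tenth, at chr8:96697429-96697498 (plus strand), was the least steady of the first 10, with 1883 and 1749.9 CPM untreated, 3840.4 and 6353 in scrambled AMO cells, and 6514 and 10529.5 in U1 AMO cells. Its AMO libraries were all above the untreated ones, and its U1 AMO library was above the scrambled AMO library in each run. The groups of the AMO libraries did not overlap, but U1 AMO against scrambled AMO did not pass the main test described below (edgeR adjusted p = 1). With the run as a term in the 4 AMO libraries, also described below, it passed, with a log2 fold change of 0.73 ± 0.138 (SE, edgeR adjusted p = 0.00131).

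Among the other 6 of the first 10, the cluster at chr5:143664787-143664817 (minus strand) spanned 2555 to 10237 CPM, with untreated replicate 2 lowest. Both of its replicate 2 AMO libraries (8929 and 10237 CPM) were about double those of replicate 1 (4412 and 4851 CPM). At chr7:13512013-13512046 (plus strand) untreated replicate 2 had 2229 CPM and the other libraries 5131 to 7114. The remaining 4, at chr14:25315076-25315095, chr15:76736728-76736758, chr11:48619575-48619610 and chr8:125629120-125629171 (all plus strand), had ratios of highest to lowest library of 1.77, 1.47, 1.39 and 1.95. In none of these 4 did the U1 AMO libraries lie outside the range of the other 4 libraries in both replicates.

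**Figure D3:**
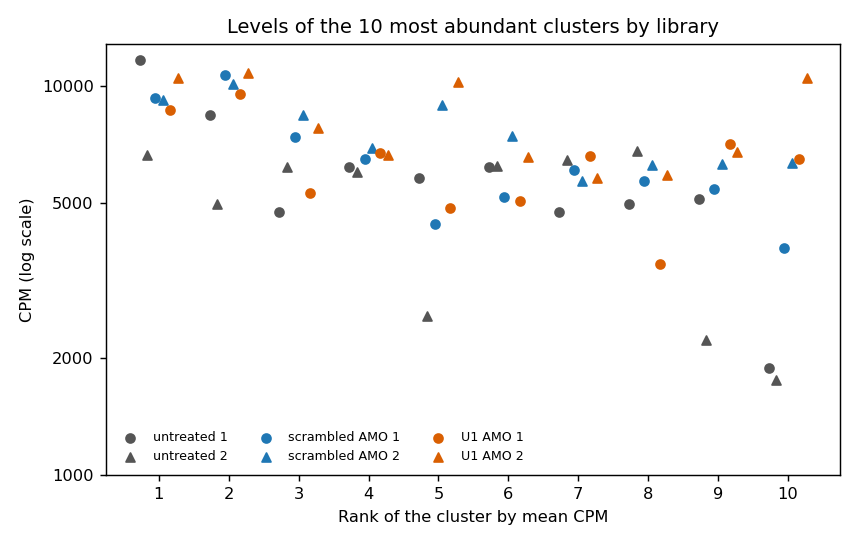
Levels of the 10 clusters with the highest mean (x axis, rank) in CPM (y axis, log scale), one point per library, circles for replicate 1 and triangles for replicate 2. Ranks 4 and 7 have the tightest points, and rank 10 has both untreated libraries lowest.

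Cleavage within the clusters was spread over several nucleotides. The effective number of positions is the inverse of the sum of squared shares of reads, equal to 1 when all reads end at one nucleotide. Its mean over the 6 libraries had a median of 3.11 and ran from 1.005 to 11.3 over the 879 clusters. It was under 1.5 at 28 clusters, 1.5 to 3 at 387, 3 to 6 at 385 and 6 or more at 79. The clusters had a median width of 35 nt and 27 distinct positions, most of them with few reads. On average 89.1% to 89.8% of the reads of a cluster fell within 5 nt of its strongest position in the 6 libraries. More reads lay 1 to 5 nt downstream of it (17.8% to 26.3%) than upstream (15.0% to 18.1%) in each library.

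**Figure D4:**
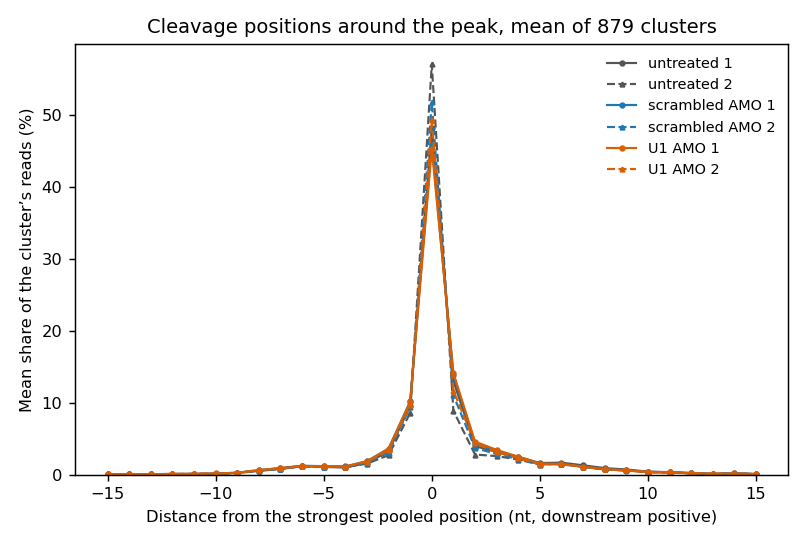
Mean share of the reads of a cluster (y axis, percent) by distance from the strongest pooled position (x axis, nt, downstream positive), averaged over 879 clusters, one line per library. The peak is highest in untreated replicate 2 (57.0%) and lowest in U1 AMO replicate 1 (45.3%), and downstream shoulders exceed upstream ones.

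The most focused cleavage was at chr7:87382458-87382464 (minus strand, AATAAA 19 nt upstream of the strongest position). Its effective number was 1.005 over 7 positions, at levels of 488 and 192 CPM untreated, 371 and 505 in scrambled AMO cells, and 368 and 571 in U1 AMO cells. Next came chr4:82841096-82841101 (plus, effective number 1.01), chr2:38857084-38857100 (minus, 1.02), chrX:123199800-123199804 (minus, 1.05) and chr11:93811109-93811127 (minus, 1.09). All 5 had AATAAA, 19 to 24 nt upstream. The level of each was lowest in untreated replicate 2, and the ratio of highest to lowest library ran from 2.95 to 5.75.

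The most dispersed cleavage was at chr15:102329304-102329374 (plus strand), with an effective number of 11.3 over 71 positions. Reads there followed a pair of signals, ATTAAA with 70.1% and AATAGA with 28.2% of the reads. At chr12:25398944-25399031 (plus, 11.2) AATAAA held 90.6% and ATTAAA 9.21%. At chr15:82180555-82180616 (minus, 10.4) AATAAA held 74.1% and GATAAA 25.9%. The clusters at chr2:90899580-90899606 (plus, 10.5) and chr13:21284714-21284740 (plus, 9.76) were as dispersed with a single AATAAA over 27 nt each. Dispersed cleavage thus occurred both with several signals and with one.

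Replicates differed in the effective number about as much as the groups did. The median over the 879 clusters was 3.16 and 2.49 in untreated cells, 3.39 and 2.92 in scrambled AMO cells, and 3.46 and 3.15 in U1 AMO cells. The group means were 2.82 ± 0.472, 3.15 ± 0.333 and 3.30 ± 0.219 (SD, n = 2). Untreated replicate 2 had the lowest value of all libraries at 777 clusters (88.4%). That library also listed the fewest distinct positions outside chromosome M, 497402 from 60261221 reads. The other libraries listed 678433 to 1187167 positions, and whether this bears on the effective number was not tested. The clusters of 20 to 200 CPM followed the same order of libraries at higher values, 3.46 and 2.70, 3.69 and 3.16, and 3.78 and 3.44. The median share of reads at the strongest position ran from 44.6% (U1 AMO replicate 1) to 56.7% (untreated replicate 2) among the 879.

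Within the runs, the effective number of the U1 AMO library exceeded that of the scrambled AMO library in both replicates at 584 clusters (66.4%) and was lower in both at 19. Among clusters of 20 to 200 CPM it was higher in both at 54.2%. The differences were small, with a median of 0.07 on the log2 scale in the 879 and in all 15784 clusters with at least 50 reads in every library. This median moved when a single library was left out. Those fits have no term for the run, so they set AMO libraries of different runs against each other. For the 879 the median was 0.18 without scrambled AMO replicate 1, -0.04 without scrambled AMO replicate 2, -0.01 without U1 AMO replicate 1 and 0.14 without U1 AMO replicate 2. No cluster passed the test of the effective number (limma on its log2 value, Benjamini-Hochberg adjusted p under 0.05), which called 0% of the 15784 in each of the 3 comparisons. All 879 had the reads to be tested. At an unadjusted p under 0.05 there were 0 of the 879 for U1 AMO against scrambled AMO, 9 for scrambled AMO against untreated and 15 for U1 AMO against untreated. These are 0%, 1.02% and 1.71% of the 879, against 0.152%, 2.73% and 5.32% of the 15784. The largest difference for U1 AMO against scrambled AMO was at chr7:104867307-104867459, where the effective number was 5.94 and 4.72 in scrambled AMO cells and 7.43 and 5.51 in U1 AMO cells. This was 0.27 ± 0.327 on the log2 scale (SE, limma adjusted p = 1), higher in both runs. The fit has no term for the run either, so its SE includes the difference between the runs. With that term in the 4 AMO libraries the test also called 0 of the 879 and 0 of the 15784 clusters. At an unadjusted limma p under 0.05 that fit had 1 of the 879 (0.114%), against 6.3% of the 15784.

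Where cleavage occurred varied little. The strongest position was the same nucleotide in all 6 libraries at 748 clusters (85.1%), against 82.6% of clusters of 20 to 200 CPM, and it stayed within 3 nt at 822. The read-weighted mean position, counted in nt from the upstream end of the cluster, had a median range over the 6 libraries of 0.348 nt. It stayed within 0.5 nt at 567 clusters and within 1 nt at 750, and it moved over 3 nt at 36. The test of the mean position (limma, adjusted p under 0.05) also called 0% of the 15784 clusters in each of the 3 comparisons, and none of the 879. Without untreated replicate 2, however, 2 of the 879 passed for scrambled AMO and 2 for U1 AMO against untreated, and 8 of the 15784 (0.0507%) in each. Unadjusted, 3 of the 879 were under 0.05 for U1 AMO against scrambled AMO, 49 for scrambled AMO and 59 for U1 AMO against untreated. These are 0.341%, 5.57% and 6.71% of the 879, below the 1.29%, 7.08% and 9.02% of the 15784. The median size of the difference for U1 AMO against scrambled AMO was 0.0505 nt, and it was 0.0958 nt without scrambled AMO replicate 1 and 0.103 nt without U1 AMO replicate 2.

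The larger shifts of the mean position lay in clusters with more than one signal. A single hexamer site was the only one with 5% or more of the reads at 826 clusters (94.0%), against 91.1% and 88.9% of the lower levels. The other 53 had at least 2 sites with 5% each, and 51 of them had exactly 2. The range of the mean position had a median of 3.12 nt in these 53 and of 0.324 nt in the 826. Their sites lay 3 to 212 nt apart, with a median of 40 nt, and in 19 of the 53 the sites had the same hexamer.

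At chr7:104867307-104867459 (plus strand) a pair of AATAAA signals lay 67 nt apart. The upstream signal took 36.9% and 24.6% of the reads of these sites in untreated cells, 46.4% and 49.6% in scrambled AMO cells, and 56.6% and 51.2% in U1 AMO cells. All 4 AMO libraries were above the untreated ones, and the U1 AMO library was above the scrambled AMO library in both runs. The mean position was 57.2 and 65.2 nt untreated, 49.9 and 48.1 nt in scrambled AMO cells, and 43.1 and 46.8 nt in U1 AMO cells. The shift was -16.27 ± 3.13 nt for U1 AMO against untreated (SE, limma adjusted p = 0.439), -12.22 nt for scrambled AMO against untreated and -4.05 nt for U1 AMO against scrambled AMO. The first 2 share the untreated libraries.

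At chr19:46158939-46159051 (plus strand) an ATTAAA and a second ATTAAA lay 54 nt apart. The downstream one took 16.05% and 16.2% in untreated cells, 32.5% and 48.4% in scrambled AMO cells, and 27.1% and 42.4% in U1 AMO cells. Both AMO groups were above untreated cells, with replicate 2 higher than replicate 1 and the U1 AMO lower than the scrambled AMO in both runs. The mean position lay 18.72 ± 5.52 nt further downstream with the scrambled AMO than untreated (SE, limma adjusted p = 0.675) and 15.00 nt with the U1 AMO (adjusted p = 0.556).

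In other clusters a single library stood apart. At chr15:11913723-11913853 (minus strand) the upstream ATTAAA took 55.2% in untreated replicate 2 and between 25.3% and 35.4% in the other 5 libraries. At chr1:72760194-72760265 (plus strand) the upstream AATAAA took 17.5% in untreated replicate 2 and between 41.1% and 49.9% elsewhere. At chr9:66797261-66797340 (plus strand) the upstream TATAAA had 0% in untreated replicate 1, 13.3% in untreated replicate 2 and 17.2% to 20.1% in the AMO libraries. If its unlisted positions had a count of 0, the share in untreated replicate 1 was at most 0.0409%. How positions were filtered is not stated, so filtered positions cannot be told apart from a count of 0.

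Over all 53 clusters with several sites, the upstream site took a larger share in U1 AMO than in scrambled AMO libraries in both runs at 21, a smaller one in both at 17, and went opposite ways at 15. The median difference was 0.125 percentage points in replicate 1 and 0.234 in replicate 2, against a median range over the 6 libraries of 9.45 points. The same held for separate clusters among the 879 that neighbour each other on a strand. There were 26 such pairs at most 5000 nt apart, and whether a pair belongs to one gene is not known here. The upstream cluster of the pair gained share with the U1 AMO in both runs at 10 and lost it in both at 10.

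Levels varied more than positions. The ratio of the highest to the lowest library had a median of 2.002 over the 879 clusters, against 2.22 for clusters of 20 to 200 CPM, and the coefficient of variation over 6 libraries had medians of 25.2% and 29.6%. The ratio was under 2 at 438 clusters (49.8%), 4 or more at 81 and 10 or more at 10. Untreated replicate 2 was the lowest library at 305 clusters and also the highest at 223. By the effective number, the median ratio was 2.32 at the 28 clusters under 1.5 and 1.90 at the 79 with 6 or more. By hexamer it was 2.002 with AATAAA, 1.93 with ATTAAA and 2.11 with the others.

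The steadiest clusters after the one on chromosome 9 were chr1:71625966-71625995 (plus strand, ratio 1.16), chr4:44045703-44045744 (plus, 1.18), chr2:179993142-179993157 (plus, 1.19) and chr2:25417583-25417617 (plus, 1.196). The last had the hexamer AAACAA and 414 and 424 CPM untreated, 400.3 and 451 in scrambled AMO cells, and 479 and 427 in U1 AMO cells. The largest ratio, 86.6, was at chr17:31784010-31784068 (minus strand), where untreated replicate 1 had 4.02 CPM, untreated replicate 2 264 CPM and the AMO libraries 273 to 348 CPM. At chr14:31825602-31825671 (minus strand, ratio 34.4) untreated replicate 1 had 11.3 CPM and the others 188 to 388. In both, a single library was low. Its replicate was just below the AMO libraries in the first and above them in the second.

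In 3 further clusters both untreated libraries were low. At chr4:133156454-133156474 (minus strand, ratio 22.6) they had 59.0 and 22.7 CPM, against 417 and 245 in scrambled AMO cells and 514 and 305 in U1 AMO cells. At chr14:76907553-76907635 (plus strand, ratio 13.97) they had 42.6 and 49.7 CPM, against 362 and 237, and 595 and 314. At chr15:78760612-78760652 (plus strand, ratio 15.6) the values were 151 and 50.8 CPM untreated, 538 and 212 in scrambled AMO cells, and 794 and 219 in U1 AMO cells, so that replicate 1 was over 2-fold higher than replicate 2 in every group.

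Libraries of a run resembled each other more than replicates did. The median size of the log2 ratio over the 879 clusters was 0.22 between the AMO libraries of replicate 1 and 0.14 between those of replicate 2. Between replicates of a group it was 0.28 to 0.49, with the untreated libraries farthest apart, and between libraries of different groups and runs 0.28 to 0.62. Deviations from the group mean in the 2 AMO groups had a correlation of r = 0.806 for libraries with the same number, over the 879 clusters, which are not independent replicates. The replicate numbers of the AMO groups were therefore taken as their runs.

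The comparison of U1 AMO with scrambled AMO asks whether the level of an abundant cluster changes when U1 is inhibited. None of the 879 clusters passed the main test (edgeR quasi-likelihood test, 6 libraries in one fit, adjusted p under 0.05), which called 0.565% of the 80119 clusters tested. All 879 passed the filter on low counts, and 3 (0.341%) had an unadjusted p under 0.05, all higher, against 9.09% of all clusters. This fit has no term for the run, and these shares differ in the fit with that term, given below. The highest fold change was at chr10:59412361-59412477 (minus strand, AATAAA). It had 386 and 306 CPM untreated, 232 and 115 in scrambled AMO cells, and 941 and 789 in U1 AMO cells. The U1 AMO libraries were above all others, by 4.06-fold over the scrambled AMO in the run of replicate 1 and by 6.85-fold in that of replicate 2. The log2 fold change was 2.30 ± 0.405 (SE, edgeR adjusted p = 0.0656). It was the single cluster called by DESeq2 (1 of 879, against 3.86% of all clusters), in the 4 AMO libraries alone (1, against 3.46%), and in edgeR without untreated replicate 1, untreated replicate 2 or U1 AMO replicate 1 (1 each, against 2.51%, 3.41% and 1.04%).

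When the run was added as a term and only the 4 AMO libraries were fitted, 81 of the 879 clusters (9.22%) were called, 28 higher and 53 lower with the U1 AMO. That fit called 15% of 68692 clusters, 13% higher and 2.05% lower. Only 1 residual degree of freedom remains in it, so its p-values depend on the spread that clusters share. Before adjustment, 235 of the 879 (26.7%) had an edgeR p under 0.05 in this fit, against 24.2% of all clusters. Of the 235, 80 were higher and 155 lower with the U1 AMO. The 28 had log2 fold changes of 0.41 to 2.38 (median 0.64) and the 53 of -1.18 to -0.41 (median -0.49), and 3 of the 81 were past 2-fold. The U1 AMO and scrambled AMO libraries did not overlap at 54 of the 81, a count that uses the same levels as the test. Over the 879, both U1 AMO libraries were above both scrambled AMO libraries at 9.67% and below both at 18.1%. AATAAA led 60 of the 81 and ATTAAA 12.

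The cluster on chromosome 10 was the highest in this fit too, with a log2 fold change of 2.38 ± 0.166 (SE, edgeR adjusted p = 5.48e-08). An AGTAAA cluster at chr8:73224502-73224534 (plus strand) had 238 and 274 CPM in scrambled AMO cells and 507 and 595 in U1 AMO cells, a log2 fold change of 1.08 (adjusted p = 1.98e-05 in edgeR). The untreated libraries there had 468 and 154 CPM, one above and one below both scrambled AMO libraries and both below the U1 AMO libraries. At chr5:125866326-125866355 (minus strand) the scrambled AMO libraries had 377 and 498 CPM and the U1 AMO libraries 794 and 944, against 397 and 334 untreated. The U1 AMO libraries there were above all 4 others, 2.11-fold and 1.90-fold over the scrambled AMO within the runs. The clusters at chr8:86135789-86135818 (plus) and chr17:34248951-34248989 (minus) had log2 fold changes of 0.95 and 0.91.

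Falls were smaller. The cluster at chr2:154692966-154692999 (plus strand) had the lowest log2 fold change, -1.18, but the fall was far larger in replicate 1 than in replicate 2. Its level went from 279 CPM (scrambled AMO) to 66.6 CPM (U1 AMO) in replicate 1 and from 525 to 432 CPM in replicate 2. Without U1 AMO replicate 1 its fold change in the main test was 0.18 on the log2 scale. That value sets U1 AMO replicate 2 against scrambled AMO libraries of both runs. The fall at chr3:90418318-90418347 (plus strand) was alike in both runs, from 768 to 476 CPM and from 654 to 379 CPM (ratios 0.619 and 0.580), with 493 and 973 CPM untreated. At chr8:88062467-88062541 (minus) the ratios were 0.551 and 0.653, at chr2:121263706-121263737 (plus) 0.487 and 0.718, and at chr14:55126014-55126052 (minus) 0.550 and 0.744.

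Most abundant clusters kept their level within the runs. This ratio, U1 AMO over scrambled AMO, had a median of 0.974 in the run of replicate 1 and 0.963 in that of replicate 2. It stayed within 1.5-fold in both runs at 782 clusters (89.0%), against 84.0% of clusters of 20 to 200 CPM. It was over 1.5-fold higher in both runs at 11 clusters and over 1.5-fold lower in both at 2. Both U1 AMO libraries were above both scrambled AMO libraries at 85 clusters (9.67%) and below both at 159 (18.1%), and at 7.51% and 26.4% of clusters of 20 to 200 CPM.

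**Figure D5:**
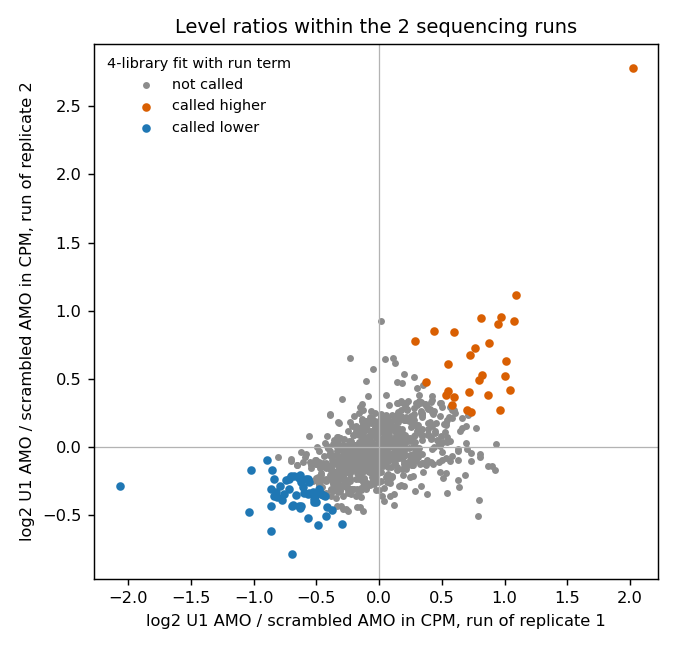
Log2 ratio of U1 AMO to scrambled AMO in CPM for each of the 879 clusters in the run of replicate 1 (x axis) and of replicate 2 (y axis), with clusters called in the fit with the run as a term in orange (28 higher) and blue (53 lower). Most points lie near 0 on both axes, one cluster stands apart at the upper right, and one at the left falls far more in replicate 1 than in replicate 2.

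For scrambled AMO against untreated, none of the 879 clusters passed the main edgeR test, which called 0% of all clusters, and 101 (11.5%, against 13.1% of all clusters) were under 0.05 before adjustment, with 45 above and 56 below untreated cells. DESeq2 called 29 of the 879 (and 2.69% of all clusters), and edgeR without a filter on low counts 3 (and 0.136%). The 3 highest and 3 lowest fold changes are given as values. The log2 fold changes were 2.92 at chr4:133156454-133156474, 2.64 at chr14:76907553-76907635 and 2.31 at chr10:18576871-18576900, and -2.53 at chr7:149761391-149761448, -1.88 at chr6:122677820-122677882 and -1.77 at chr11:75322929-75322977. All 6 had an edgeR adjusted p of 0.266. At the last of them the untreated libraries had 674 and 1602 CPM, the scrambled AMO 437 and 246, and the U1 AMO 368 and 267, so both AMO groups were below untreated cells.

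For U1 AMO against untreated, 16 of the 879 clusters passed (edgeR), 9 higher and 7 lower. The test called 4.81% of the 80119 clusters, 4.29% higher and 0.518% lower. The 16 are 1.82% of the 879, below the share of all clusters. The count depended on the libraries. Without untreated replicate 1 the order of the shares turned, with 91 of the 879 (10.4%) called against 7.9% of all clusters. It was 14 without untreated replicate 2 (2.13% of all clusters), 8 and 15 without scrambled AMO replicates 1 and 2 (3.57% and 4.33%), and 7 and 3 without U1 AMO replicates 1 and 2 (2.72% and 1.3%). It was 80 in DESeq2, which called 12.5% of all clusters, and 1 in the 4 libraries of these groups alone (1.73%). Without the filter on low counts it was 5, or 0.569% of the 879, against 0.767% of all clusters. With the replicate number as a block it was 0 in 4 and in 6 libraries, against 0% of all clusters in each. Of the 9 that were higher, 8 had an untreated mean under 200 CPM, and 5 of the 7 lower had a U1 AMO mean under 200 CPM, so these reached the threshold through the other libraries.

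At all 16 the U1 AMO and untreated libraries did not overlap, a count that uses the same levels as the test. Of the 879, both U1 AMO libraries were above both untreated ones at 26.2% and below both at 24.3%. Among clusters of 20 to 200 CPM these shares were 20.1% and 35.2%. The comparisons of each AMO with untreated cells share the untreated libraries, which came from other runs, and the part of the runs cannot be told apart. The cluster at chr1:155756776-155756807 (plus strand, TATAAA) had 99.2 and 54.7 CPM untreated, 364 and 385 in scrambled AMO cells, and 515 and 473 in U1 AMO cells. Its log2 fold change for U1 AMO against untreated was 2.58 ± 0.410 (SE, edgeR adjusted p = 0.0279), against 2.22 for scrambled AMO against untreated. Those at chr14:76907553-76907635 and chr4:133156454-133156474, with their levels above, had log2 fold changes of 3.20 and 3.19 (adjusted p = 0.0171 and 0.0364 in edgeR). These 2 passed with any one library left out, and the cluster on chromosome 1 failed without U1 AMO replicate 2.

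The cluster at chr10:18576871-18576900 (plus strand) had 65.4 and 39.4 CPM untreated, 369 and 181 in scrambled AMO cells, and 417 and 229 in U1 AMO cells. The cluster at chr5:150419409-150419434 (minus strand) had 169.6 and 141 CPM untreated, 524 and 743 in scrambled AMO cells, and 696 and 689 in U1 AMO cells. In both, every AMO library was above the untreated ones, and the U1 AMO and scrambled AMO groups overlapped. Neither passed without untreated replicate 2, nor did the second without U1 AMO replicate 2.

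The lowest fold change was at chr6:122677820-122677882 (minus strand), with 1413 and 2420.3 CPM untreated, 675 and 399.6 in scrambled AMO cells, and 592 and 311 in U1 AMO cells. Its log2 fold change for U1 AMO against untreated was -2.17 ± 0.443 (SE, edgeR adjusted p = 0.0449), and the U1 AMO library was below the scrambled AMO library in both runs. The cluster at chr7:149761391-149761448 (minus strand) had 729.8 and 353 CPM untreated, 114 and 84.6 in scrambled AMO cells, and 159 and 106 in U1 AMO cells. There the scrambled AMO was the lowest group. The clusters at chr19:44381335-44381366 (plus, -1.89), chr11:120820069-120820120 (plus, AAATAA, -1.87) and chr6:28376595-28376618 (plus, -1.83) completed the 5 lowest log2 fold changes called. Leaving out one library ended the call at all 5, without U1 AMO replicate 1 and also without U1 AMO replicate 2. Without scrambled AMO replicate 1 it ended at the last 4, and without untreated replicate 2 at those of chr6:122677820, chr19 and chr6:28376595.

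The 879 clusters were not spread over chromosomes as the less abundant ones were. Chromosome 11 held 113 of them (12.9%, against 9.54% of clusters of 20 to 200 CPM) and chromosome 8 held 80 (9.10%, against 5.88%). Chromosome Y held 0 (against 0.0317%). These shares were not tested. In all, 73 of the 879 (8.30%) had another of them on the same strand within 20000 nt, and 14 within 200 nt. One such pair is at chr1:55148076-55148096 and chr1:55148152-55148172 (plus strand), chosen after its values were seen. The ratio of the first to the second was 16.9 and 4.81 in untreated cells, 4.84 and 4.70 in scrambled AMO cells and 3.88 and 4.83 in U1 AMO cells, so untreated replicate 1 alone stood apart. The second of the pair is one of the 9 clusters called higher with the U1 AMO than in untreated cells. The tenth cluster by level, at chr8:96697429-96697498, had another of the 879 at chr8:96704181-96704244 on the same strand. Their ratio was 1.45 and 1.96 untreated, 1.87 and 1.92 in scrambled AMO cells and 1.92 and 2.66 in U1 AMO cells.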

How the data were processed

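Per the labels' protocols, RNase T1 cut the poly(A)-selected RNA, and cDNA was size-selected, circularised, PCR-amplified and sequenced. Per the submitters' processing notes, cutadapt and Bowtie were used with the build mm9; the versions, and how positions were filtered, are not stated there. The deposited values are whole-number read counts per stranded position, not normalized and listed per library, with a hexamer and its distance. Another deposited number per position, of unstated meaning, was not used.

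Positions outside chromosome M were pooled and joined within 24 nt, and counts were summed per cluster and scaled to CPM. Levels were tested with edgeR 4.0.16 (TMM, filterByExpr, quasi-likelihood, R 4.3.3), with DESeq2 1.42.0 as an alternative. The log2 effective number and the mean position were tested with limma 3.58.1 where every library had at least 50 reads. All p-values were adjusted over all clusters tested (Benjamini-Hochberg), and scripts were tested on simulated data. Pandas 2.3.3, scipy 1.17.1 and numpy 2.4.6 in Python 3.11.15 gave the other values.

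Clusters were named by rule: the 10 highest by mean CPM; the 5 highest and 5 lowest by effective number and by ratio of libraries; per comparison of levels the 5 highest and 5 lowest called fold changes, or 3 each way where none was called; the largest differences in position measures; 3 on each side of the threshold; and 5 with other hexamers. The members, lists and rules were chosen with earlier results of these data known. Pairing of the AMO libraries comes from the runs in the read names (r = 0.806); for untreated with scrambled AMO r was -0.290 and with U1 AMO -0.154. Lists of genes and cell type markers could not be used without an annotation of mm9.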

Additional observations from a re-analysis of the deposited data

How the results depend on the processing

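Among repeats of the main counts and shares under other settings, 117 stayed within 1.5 times the main count or within the spread of the value, and 19 moved. For U1 AMO against scrambled AMO, 0 called clusters became 1 in DESeq2, 1 in the 4 libraries alone and 81 with the replicate block in those 4 libraries, with 0 to 1 when leaving out one library. For scrambled AMO against untreated, 0 became 29 in DESeq2 and 3 without a filter on low counts. For U1 AMO against untreated, 16 became 80 in DESeq2, 5 without the filter, 1 in the 4 libraries alone, 0 with the replicate block in 4 or in 6 libraries, and 3 to 91 when leaving out one library. Mean position gave 0 to 2 called clusters against untreated cells when leaving out one library, for either AMO. The replicate block changed no other count of called clusters. For levels of U1 AMO against untreated, the fits with the block called 0% of all clusters too, and the fit without the filter called 0.767%. The number of clusters at 200 CPM or more was 862 to 894 over the alternatives. Among repeats of the values of single clusters, 225 stayed the same, 55 were weaker, 20 were stronger and 1 reversed. The reversed one was the level at chr2:154692966-154692999. It was -0.67, with a range of -2.72 (without U1 AMO replicate 2) to 0.18 (without U1 AMO replicate 1). The value of 0.18 sets U1 AMO replicate 2 against scrambled AMO libraries of both runs. Within each run the level was lower with the U1 AMO. The causes were not tested. With 2 libraries per group, and each untreated library in its own run, modest changes of level against untreated cells lie within the spread between libraries. For U1 AMO against scrambled AMO this depended on the fit. The main test called 0 of the 879 clusters (0.565% of all clusters). The fit with the run as a term in the 4 AMO libraries called 81 (15% of all clusters). Repeats that leave out the library outside a comparison were added after seeing the data.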
